A study of Mus musculus with 6 samples.

Results

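Iron handling genes were followed in mouse liver after a ketogenic diet, in which fat replaces nearly all carbohydrate, and after chow. The genes were Hamp, Hamp2, Bmp6, Hfe, Tfr2, Tfrc, Trf, Fth1, Ftl1 and Slc40a1, and a probe set, the group of short probes that reads 1 transcript on the array, was taken where the platform annotation gave exactly 1 of these 10 symbols. This found 19 of the 45101 probe sets of the table, for 8 of the 10 genes (the table names 18194 genes by a probe set of their own). Ftl1 and Trf had only probe sets shared with other symbols and are not described. Of the 19, 3 were manufacturer's control probe sets for Tfrc, which stayed out of the test, and 14 of the other 16 passed a filter that kept the brighter probe sets, with at least 1 for each of the 8 genes.

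The ketogenic group was 3 arrays of liver RNA from C57BL/6 mice on diet F3666 (Bio-Serv). The chow group was 3 arrays from C57BL/6 mice on Labdiet 5008. The mice of both groups were 8 weeks old at the start, received their diet for 6 weeks and were feeding freely when livers were taken in the morning. RNA came from 2 to 3 animals per group, and the sources used here do not say if an array held 1 animal or a pool. The p-values therefore measure the spread between arrays alone, which may be technical. Neither sex nor the iron content of the diets is given there.

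Hepcidin, a peptide hormone made by hepatocytes, sets how much iron enters the blood: it binds ferroportin, the only known cellular iron exporter, and causes its degradation. Hepatocytes raise hepcidin transcription when iron is plentiful, through the bone morphogenetic protein (BMP) ligand Bmp6 and the SMAD proteins with the membrane proteins Hfe and Tfr2, and in inflammation through interleukin 6 and STAT3. Inside the cell, iron regulatory proteins bind stem loops in mRNAs; they stabilise the mRNA of the transferrin receptor Tfrc and block translation of ferritin, so protein can change where the mRNA on an array does not.

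Mice carry a pair of hepcidin genes, and their upstream sequences are shown because the array signals of both genes were lower on the ketogenic diet, to unequal extents. The 250 bases before the transcript start are given 5′ to 3′ on the minus strand from RefSeq (GRCm38.p6), at chr7:30944030-30944279 for Hamp and chr7:30924182-30924431 for Hamp2. Capitals mark GGCGCC, the core of the BMP response element, with the aligned letters of Hamp2, and after it a match to the STAT motif TTCNNNGAA.
Hamp: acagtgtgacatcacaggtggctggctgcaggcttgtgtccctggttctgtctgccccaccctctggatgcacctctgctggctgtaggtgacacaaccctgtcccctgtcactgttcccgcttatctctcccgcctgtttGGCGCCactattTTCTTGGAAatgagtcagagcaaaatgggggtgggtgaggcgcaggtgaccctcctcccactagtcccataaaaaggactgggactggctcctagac
Hamp2: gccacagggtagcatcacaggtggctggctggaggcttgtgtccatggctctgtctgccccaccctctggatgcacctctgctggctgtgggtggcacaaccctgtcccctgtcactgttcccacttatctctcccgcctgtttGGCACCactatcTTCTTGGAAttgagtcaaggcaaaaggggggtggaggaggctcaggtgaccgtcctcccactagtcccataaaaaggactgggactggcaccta

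The sequences aligned over 247 bases with 227 identical, an identity of 91.9%. Within the BMP core the difference was G145A, with positions counted from 1 at the first base printed for Hamp, so the motif GGCGCC was present for Hamp and absent for Hamp2. The STAT match was identical in both. GGCGCC was found in 11.9% and TTCNNNGAA in 8.3% of all 32851 promoter windows (250 bases before to 50 after the start), searched on both strands. Among the 11 windows of 7 measured genes, GGCGCC lay in only 2, of Hamp and of Tfrc, which itself has 2 windows. TTCNNNGAA lay in the windows of Hamp and Hamp2. The E-box CACGTG lay in that of Bmp6 (7.15% of all windows), and the antioxidant response element TGACNNNGC in those of Bmp6 and Hfe (12.4%). CAGTGN, the loop of the iron responsive element, was searched on the transcript strand in the first 50 bases after the start. It was found in 1 window, of Tfr2, which has 3 (7.08% of all windows). The rest of each transcript was not searched, and Slc40a1 had no window. A gene without a match here may thus carry the element elsewhere. All motif matches given here are matches of letters and not sites of binding.

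Signals were not at a common level between arrays. The 2% trimmed mean signal was 45.8 to 61.0 on ketogenic and 39.9 to 53.5 on chow arrays, with overlap, and ketogenic array 3 had the lowest of the ketogenic values. The signal of the hybridization controls, RNA added in fixed amounts, was 1148 to 1248 on ketogenic and 1457 to 1492 on chow arrays, without overlap (exact permutation p = 0.1, the smallest possible with 3 against 3 arrays). As deposited, the median log2 change (ketogenic minus chow) of all probe sets kept was 0.22. Other scalings moved this median by -0.21 (common trimmed mean), -0.11 (common array median), -0.23 (quantile normalization) and 0.36 (hybridization controls). The ratio of 3′ to 5′ actin signal, a sign of RNA quality, was 1.49 to 1.63 on ketogenic and 2.00 to 2.20 on chow arrays, without overlap (exact permutation p = 0.1). Hepatocyte markers were bright on all arrays: their summed signal was 32424 to 36707 on ketogenic and 37249 to 39493 on chow arrays, without overlap, and 0 of 5 changed in limma (0 also at an unadjusted p under 0.05).

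On the ketogenic diet the exporter Slc40a1 rose on both of its probe sets, the probe set of Hamp2 fell, and no other kept probe set of the iron handling genes passed the threshold (limma, adjusted p under 0.05). Thus 3 of the 14 kept probe sets changed, against 4.64% of all 22515: 2 rose, where 4.08% of all did, and 1 fell, where 0.564% of all did. The diets did not overlap on 7 of the 14, against 26.7% of all probe sets; probe sets of 1 gene are not independent. The median log2 change of the 14 was 0.06, against 0.22 for all. All values of the kept probe sets are shown by array in the plot of signals by diet.

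**Figure D1:**
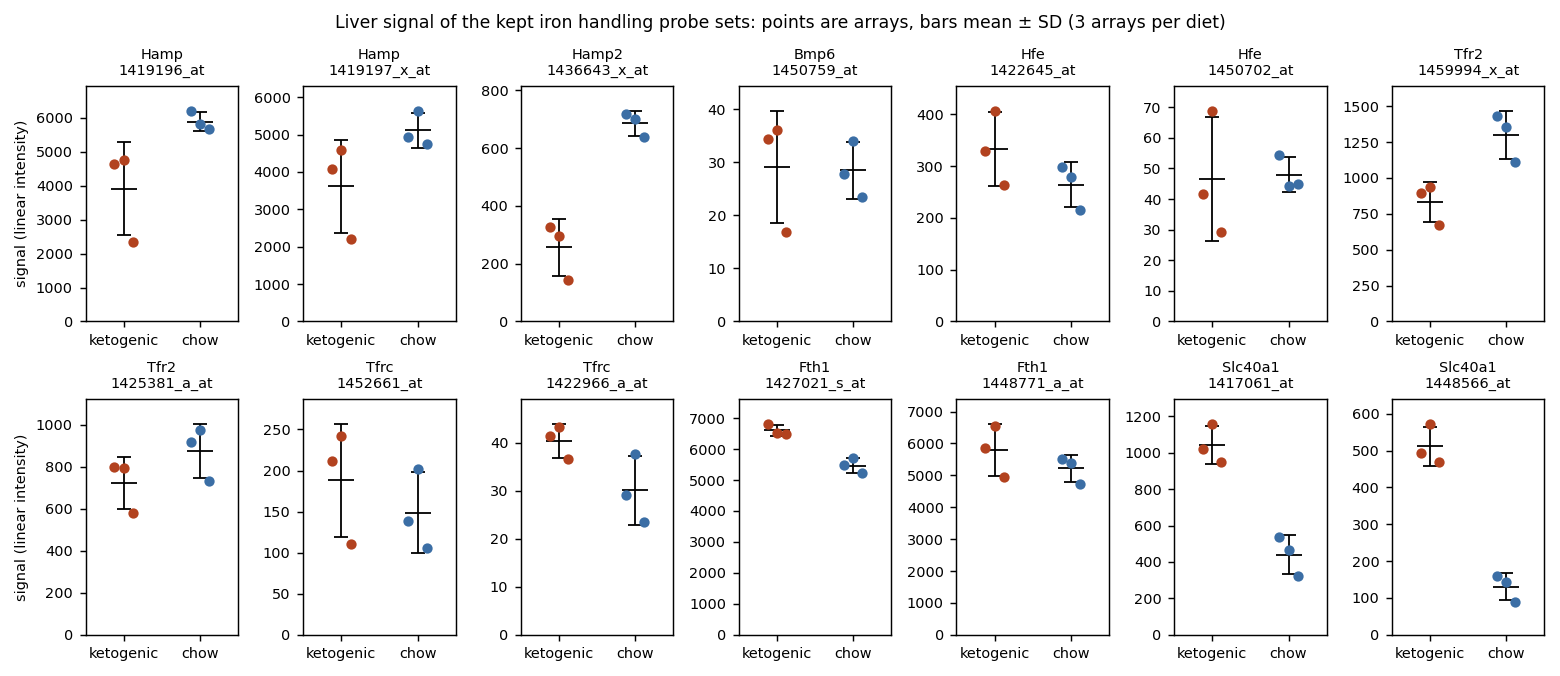
Signal (linear intensity, each axis from 0) of the 14 kept iron handling probe sets on 3 ketogenic and 3 chow arrays; points are arrays and bars the mean ± SD. Both Slc40a1 probe sets sit higher on all 3 ketogenic arrays, the Hamp2 probe set sits lower on all 3, and ketogenic array 3 (the right-hand point of its group) is the lowest of its group on all 14 probe sets.

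Hamp, the hepcidin gene that controls iron in mice, was among the brightest transcripts of the table. Its brighter probe set (1419196_at) read 4645.8, 4774.3 and 2342.2 on ketogenic arrays 1, 2 and 3, against 6207, 5813.7 and 5668.4 on chow arrays 1, 2 and 3. Every ketogenic array lay below every chow array, and ketogenic array 3 lay far below the other two. The log2 change was -0.66 ± 0.32 (SE, n = 3 per diet), not past the threshold (limma, adjusted p = 0.299). The other probe set (1419197_x_at) read 4066, 4576.9 and 2215.2 on ketogenic and 4945.6, 5629.4 and 4748.9 on chow arrays. It had the same order of diets, with a log2 change of -0.56 ± 0.32 and adjusted p = 0.369. Over the deposited values and 4 other scalings the log2 change of the brighter probe set lay between -0.87 and -0.30, and was -0.32 without ketogenic array 3. It passed the threshold under 0 of 17 alternatives (adjusted p from 0.0835 to 0.497).

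Hamp2 is a close copy of Hamp found in mice and not in humans, and its overexpression in mice does not lower iron as that of Hamp does. Its bright probe set (1436643_x_at) read 327.1, 297.4 and 144.3 on ketogenic arrays, against 720, 700.6 and 638.4 on chow arrays. The diets were well apart. It fell by 1.51 ± 0.34 on the log2 scale (SE, n = 3 per diet), with adjusted p = 0.0436. The fall passed under all 5 scalings (adjusted p from 0.0236 to 0.0436), with log2 changes from -1.72 to -1.14, but leaving out any 1 of the 6 arrays ended the call (adjusted p from 0.0593 to 0.102), as did testing all probe sets without a filter (0.186). Probe sets ending in _x_at can bind several transcripts, so reads of Hamp and Hamp2 on such a probe set are uncertain. The second Hamp2 probe set (1456289_at) was dim, with 16.1, 1.7 and 2.9 on ketogenic and 2.9, 1.6 and 7.8 on chow arrays, and was not kept. It stood above the background of 10.8, taken from bacterial control probe sets, on 1 of 6 arrays.

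The signals of both hepcidin genes were lower on the ketogenic arrays, to unequal extents, but only that of Hamp2 passed the threshold. Within an array, the log2 signal of Hamp2 minus that of Hamp was -3.83, -4.00 and -4.02 on ketogenic arrays, against -3.11, -3.05 and -3.15 on chow arrays. The means were -3.95 ± 0.11 and -3.10 ± 0.05 (SD, n = 3 each), a difference of -0.85 with no overlap (two-sided exact permutation p = 0.1, the smallest possible). This ratio was chosen after the values were seen. It does not depend on a scaling that multiplies all signals of an array by a common factor. Quantile normalization is not such a scaling, and under it the log2 changes were -0.53 for Hamp and -1.67 for Hamp2. Only the difference of the ratio between diets can be read, since signals of different probe sets are not on a common scale.

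Bmp6, the BMP ligand made by liver endothelial cells that drives hepcidin in response to iron, was measured by 1 probe set (1450759_at). It read 34.3, 36 and 16.9 on ketogenic and 27.8, 34 and 23.5 on chow arrays. The diets overlapped fully, and the log2 change was -0.03 ± 0.35 (SE), with adjusted p = 0.969. Its direction depended on the scaling, with log2 changes from -0.29 to 0.33.

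Hfe, a membrane protein related to class I histocompatibility molecules that binds Tfrc and is mutated in hereditary hemochromatosis, had 2 probe sets. The brighter (1422645_at) read 328, 406.2 and 263 on ketogenic and 298.2, 278.9 and 215.5 on chow arrays. The diets overlapped, and the log2 change was 0.32 ± 0.27 (SE), with adjusted p = 0.548. The dimmer (1450702_at) ranged from 29.3 to 68.8 on ketogenic and from 44.4 to 54.5 on chow arrays, with a log2 change of -0.12 ± 0.34 and adjusted p = 0.866. The dimmer probe set became positive (0.24) when scaled to the hybridization controls.

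Tfr2, the hepatocyte sensor of iron-loaded transferrin, also had 2 probe sets. The brighter (1459994_x_at) read 891.7, 934.8 and 674.2 on ketogenic arrays, against 1434.1, 1352 and 1112.5 on chow arrays. All ketogenic arrays lay below all chow arrays, with a log2 change of -0.65 ± 0.26 (SE) and adjusted p = 0.208 as deposited. It passed the threshold with a common trimmed mean (adjusted p = 0.0296), a common array median (0.0436) and quantile normalization (0.045), 3 of 16 alternatives, over which adjusted p reached 0.397. The second probe set (1425381_a_at) read 798, 792.1 and 579.8 on ketogenic and 919.8, 973.5 and 729.9 on chow arrays. Here the diets overlapped, with a log2 change of -0.28 ± 0.26 and adjusted p = 0.589, and its direction turned to 0.08 when scaled to the hybridization controls.

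Tfrc, the transferrin receptor through which dividing and iron-poor cells take up iron, had 6 probe sets, of which 2 were kept. The brighter (1452661_at) read 211.1, 241.7 and 111 on ketogenic and 138.2, 202.1 and 105.3 on chow arrays. The diets overlapped, with a log2 change of 0.32 ± 0.37 (SE) and adjusted p = 0.674. The other kept probe set (1422966_a_at) read 41.4, 43.2 and 36.5 on ketogenic and 29.1, 37.7 and 23.5 on chow arrays, with a log2 change of 0.45 ± 0.27 and adjusted p = 0.392. It passed under 1 of 15 alternatives, scaling to the hybridization controls (adjusted p = 0.0484). The 3 control probe sets and 1 further probe set read between 1.3 and 31.3 on ketogenic and between 0.8 and 22.4 on chow arrays.

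Within an array, the log2 signal of Tfrc minus that of Tfr2 (brightest probe sets) was -2.08, -1.95 and -2.60 on ketogenic arrays, against -3.38, -2.74 and -3.40 on chow arrays. The ketogenic arrays were all higher, by 0.96 on average, with means of -2.21 ± 0.35 and -3.17 ± 0.37 (SD, n = 3 each) and a two-sided exact permutation p = 0.1, the smallest possible. The balance of these brightest probe sets thus differed between diets without overlap, although neither gene passed the threshold as deposited. That of Tfr2 ends in _x_at and can bind several transcripts. The other kept Tfr2 probe set had a smaller log2 change (-0.28), with overlap of the diets, and no ratio was made with it. Markers of cells rich in Tfrc are given beside these values. Of 7 kept proliferation markers 5 rose, with a summed signal of 254 to 444.9 on ketogenic and 62.4 to 98.9 on chow arrays. Of these 5, 3 were under the background on all chow arrays: Mcm6 (2.3 to 3.9), Top2a (2.1 to 7) and Mki67 (2.9 to 5.2). Ccna2 was under it on the chow arrays that read 4.5 and 5.4, and Cdk1 was above it on all 6 arrays. The 3 kept erythroid markers summed to 234 to 251.2 on ketogenic and 340.3 to 486.8 on chow arrays, and 0 of 3 changed in limma. Most of this sum was Alas2, with 137.9 to 164.9 on ketogenic and 242.3 to 394.2 on chow arrays. Alas2 and Klf1 were lower at an unadjusted p under 0.05, while Hbb-b2 had a log2 change of 0.27, with overlap. The part of either cell population in the Tfrc values was not tested.

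**Figure D2:**
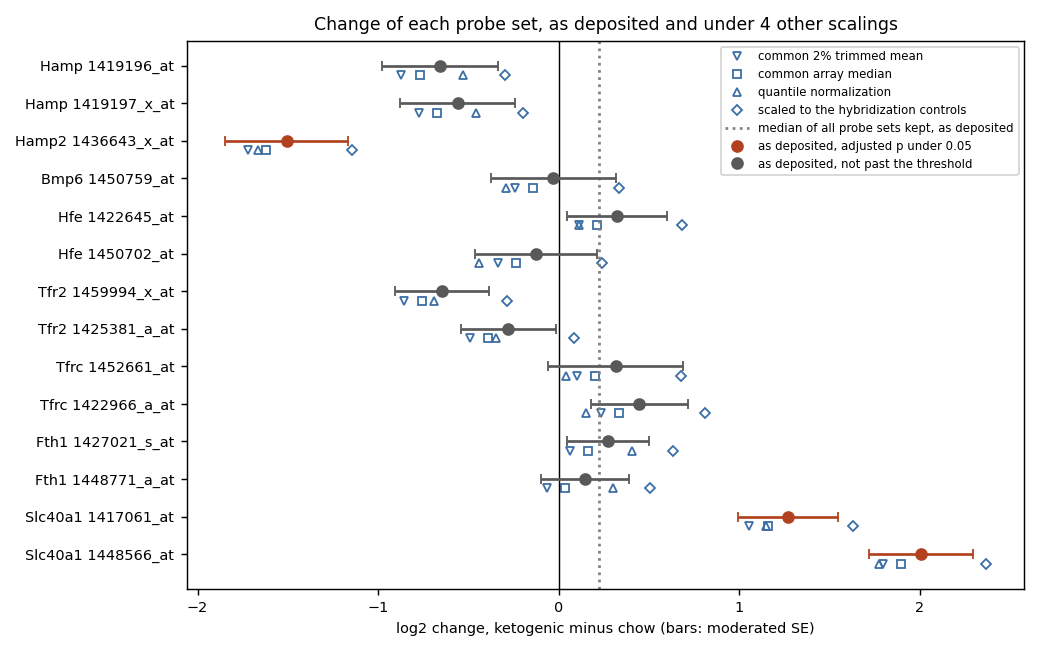
Log2 change (ketogenic minus chow) of the 14 kept iron handling probe sets; filled points with bars are the deposited values with the moderated SE, open symbols the same change under 4 other scalings, and the dotted line the median of all probe sets kept, 0.22. The Hamp2 probe set stays left of 0 and both Slc40a1 probe sets stay right of 0 under all of these scalings, while the probe sets of Bmp6 and the dimmer ones of Hfe, Tfr2 and Fth1 change side.

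Fth1, the ferritin heavy chain, whose ferroxidase activity lets ferritin store iron, was bright on every array. Its brighter probe set (1427021_s_at) read 6801.1, 6518.2 and 6495.6 on ketogenic arrays, against 5470.9, 5699.9 and 5231.8 on chow arrays. The diets did not overlap, but the log2 change was only 0.27 ± 0.23 (SE), close to the median of all probe sets, with adjusted p = 0.539. The second probe set (1448771_a_at) read 5874.3, 6560.5 and 4950.8 on ketogenic and 5524.2, 5393.1 and 4731.7 on chow arrays. These overlapped, with a log2 change of 0.15 ± 0.24 and adjusted p = 0.775, and the sign turned (-0.07) with a common trimmed mean. The highest signal of any probe set was 9773 to 10362 on ketogenic and 10310 to 10486 on chow arrays; whether changes of transcripts as bright as Fth1 and Hamp were compressed was not tested.

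Slc40a1 encodes ferroportin, which exports iron from macrophages, enterocytes and hepatocytes, and which hepcidin removes from the membrane. Its brighter probe set (1417061_at) read 1022.2, 1156.2 and 946.4 on ketogenic arrays, against 534.3, 465.8 and 321.1 on chow arrays. Its dimmer probe set (1448566_at) read 494.1, 571.2 and 468.5 on ketogenic arrays, against 159.3, 142.9 and 89.6 on chow arrays. On both, each ketogenic array was higher than every chow array by a wide margin. The brighter probe set rose 2.41-fold (log2 change 1.27 ± 0.28, SE, n = 3 per diet), with adjusted p = 0.0381, and the dimmer 4.02-fold (2.01 ± 0.29), with adjusted p = 0.00977. Both passed under all 5 scalings, with log2 changes from 1.06 to 1.63 and from 1.77 to 2.37. The brighter probe set lost its call when any 1 array except chow array 1 was left out (adjusted p from 0.083 to 0.12), while the dimmer kept it without any 1 array (adjusted p from 0.0174 to 0.0437). Without a filter on low signals neither passed (adjusted p = 0.148 and 0.0751).

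Markers of Kupffer cells and other macrophages, which express Slc40a1, moved in the same direction. Of 15 kept markers 11 rose, all 15 log2 changes were positive, and their median was 1.97. Their summed signal was 5271 to 7657 on ketogenic and 1511 to 1868 on chow arrays, without overlap. Clec4f, found on resident Kupffer cells, read 629.7, 738.4 and 315.5 on ketogenic and 170.9, 147.4 and 159.9 on chow arrays, and rose (adjusted p = 0.0277, under 11 of 17 alternatives). Adgre1 (F4/80), with a log2 change of 0.47, and Timd4, with 0.57, did not pass. Over the background on all 6 arrays were 12 of the 15. Gpnmb was under it on all 3 chow arrays (3.1, 4.6 and 2.8), Marco on 2 of 3 (4 and 4.2) and Timd4 on ketogenic array 3 (8.1). In bulk liver, more (or fewer) cells of a type and more (or less) RNA per cell cannot be told apart.

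Within an array, the log2 signal of the brighter Slc40a1 probe set minus the mean log2 signal of the 12 macrophage markers above the background on all arrays was 1.26, 1.27 and 1.63 on ketogenic arrays, against 2.17, 2.16 and 1.40 on chow arrays. The diets overlapped, with a difference of -0.52 (two-sided exact permutation p = 0.2; the smallest possible is 0.1). For the dimmer probe set the values were 0.21, 0.26 and 0.61 on ketogenic arrays, against 0.42, 0.46 and -0.44 on chow arrays, again with overlap and a difference of 0.21 (exact permutation p = 0.8). With all 15 markers, dim ones included, the differences were -0.80, without overlap, and -0.06, and the first became -0.45 with a pseudocount of 16. The comparisons with the markers were chosen after the values were seen, and the part of macrophage content in the rise of Slc40a1 was not tested further.

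**Figure D3:**
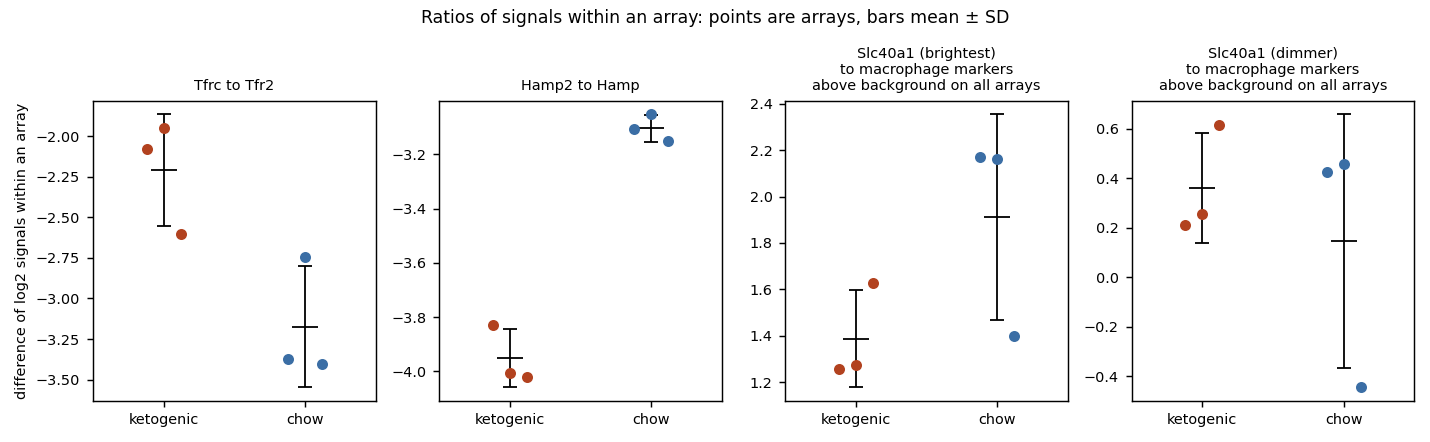
Differences of log2 signals within an array for 4 ratios, with 3 ketogenic and 3 chow arrays each; points are arrays, bars the mean ± SD, and the vertical axes differ between panels and do not start at 0. The diets are apart for Tfrc to Tfr2 and Hamp2 to Hamp (brightest probe set of each gene), and overlap for both Slc40a1 probe sets to the 12 macrophage markers above the background on all arrays.

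The probe sets whose signals followed those of Hamp, Tfrc and Slc40a1 most closely were found by the root mean square difference of log2 signals over the 6 arrays, each centred on its own mean. For Slc40a1 (brighter probe set) these were Sat1, a polyamine acetyltransferase, with a difference of 0.05, Vasp, an actin regulator, with 0.07, and Txnrd1, a thioredoxin reductase, with 0.07. Sat1, Vasp and Txnrd1 rose, with log2 changes of 1.33, 1.26 and 1.16, under 11 of 17, 11 of 17 and 9 of 16 alternatives. Genes picked for closeness to Slc40a1 on these same arrays share its change by construction, so these calls are no separate result. For Hamp they were Dock6 (0.07), AW551984 (0.09) and Dnajb4 (0.10), all dim and none past the threshold. For Tfrc they were Gnptg (0.08), Wnt2 (0.11) and Psd4 (0.11), none past the threshold either.

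Beyond these genes, 61 other genes of iron handling were kept of 65 with a probe set of their own, each read by its brightest probe set. On the ketogenic diet 4 changed, against 5.35% of all 11866 genes: 4 rose (4.74% of all genes did) and 0 fell (0.615% of all did; 0 also at an unadjusted p under 0.05), and 46 of the 61 had a positive log2 change, where 69.9% of all genes did. Their median was 0.29, against 0.23 for all genes. The 4 were Hmox1, Slc48a1, Steap4 and Lcn2.

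Of 11 genes of heme and hemoglobin iron, 2 rose, 0 fell, and 11 had a positive log2 change, where 69.9% of all genes did. Hmox1, heme oxygenase, which frees iron from heme, read 119.1, 148.1 and 134.5 on ketogenic arrays, against 26.3, 33 and 38.2 on chow arrays. It rose 4.15-fold (log2 change 2.05 ± 0.26, SE, n = 3 per diet), with adjusted p = 0.00572, and the call held without any 1 array but not without a filter (0.0523). Slc48a1 moves heme out of the lysosome of macrophages that digest red cells, and read 332.4, 342.1 and 257 on ketogenic arrays, against 113.4, 131.2 and 78.2 on chow arrays. It rose 2.93-fold (1.55 ± 0.29), with adjusted p = 0.0218, and its other kept probe set rose by 1.24 (adjusted p = 0.034). The call of the first was lost without ketogenic array 1, 2 or 3 (adjusted p = 0.0788, 0.0757 and 0.0558) and without a filter (0.112). Hpx, the plasma heme carrier hemopexin and the brightest of the list, read 6102.3, 6492.8 and 5358.8 on ketogenic and 5863.4, 5892.9 and 5860.7 on chow arrays, with a log2 change of 0.02 and adjusted p = 0.965. Named after its values were seen, Blvrb, a biliverdin reductase, had a log2 change of 1.05 and adjusted p = 0.0512, and passed under 9 of 17 alternatives (adjusted p from 0.00216 to 0.171). The macrophage markers given beside Slc40a1 moved with this list too, and their part was not tested. Cd163 is in both lists, so they are not separate.

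Of 10 genes of iron uptake and reduction, 2 rose and 0 fell. Steap4, a metalloreductase that reduces ferric iron, read 345.6, 439.2 and 433.8 on ketogenic arrays, against 164.6, 126.5 and 185.1 on chow arrays. It rose 2.58-fold (log2 change 1.36 ± 0.26, SE), with adjusted p = 0.025. The call was lost with a common trimmed mean (adjusted p = 0.0604), with quantile normalization (0.0682), without ketogenic array 1, 2 or 3 (0.0646, 0.0845 and 0.083) without chow array 2 (0.0829) and without a filter (0.112). Its other probe set had a log2 change of 1.27 and adjusted p = 0.0907. Lcn2, lipocalin 2, which binds bacterial iron carriers, read 183.3, 319.2 and 306.7 on ketogenic arrays, against 7, 53.2 and 0.8 on chow arrays. Only 1 chow array was above the background, so the rise is given as at least 10.8-fold, with chow signals under the background raised to it. The adjusted p = 0.0393 belongs to the fit with the floor of 1.1. The call was lost without ketogenic array 1, 2 or 3 (0.0585, 0.108 and 0.137), without chow array 1 (0.0893) with 3 of the 4 other scalings (0.0725 to 0.0909), with a trended robust prior (0.157) and without a filter (0.216). Neutrophil markers, from cells that also make Lcn2, summed to 98.2 to 133.1 on ketogenic and 77.9 to 108 on chow arrays, with overlap. Of these 5 markers 2 rose, S100a8 and S100a9, both under the background on all 3 chow arrays. The others had negative log2 changes (Elane -0.87, Mpo -0.63 and Ngp -0.07). The part of neutrophils in the Lcn2 values was not tested.

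Among the 15 genes that control hepcidin through BMP and SMAD proteins, 0 changed (limma); at an unadjusted p under 0.05 the list had 4 higher genes and 0 lower. Tmprss6, the protease that removes the BMP co-receptor hemojuvelin and so lowers hepcidin, was the brightest. It read 1046.2, 1026.9 and 809.9 on ketogenic and 1144.1, 903.7 and 1065.8 on chow arrays, with a log2 change of -0.11 and adjusted p = 0.831. Hjv, hemojuvelin itself, named after its values were seen, had a log2 change of 0.12 and adjusted p = 0.816. The 4 were Id1, Atoh8, Smad6 and Bmp2, named after their values were seen. Id1, a target of BMP signalling, read 211, 172.3 and 161 on ketogenic arrays, against 75.5, 94.9 and 42.6 on chow arrays (log2 change 1.42, not past the threshold). Atoh8, another BMP target, read 46.6, 54 and 42.3 on ketogenic arrays, against 27.1, 6.7 and 8.8 on chow arrays. It had a log2 change of 2.02 and adjusted p = 0.0516. Chow arrays 2 and 3 were under the background, and the change was 1.31 with a floor of 16 and 1.13 with a pseudocount of 16. Smad6, an inhibitor of BMP signalling that BMP itself induces, had a log2 change of 0.98 and adjusted p = 0.0977, and the ligand Bmp2 one of 0.91 and adjusted p = 0.107. Each of the 4 passed with a floor of 16, a pseudocount of 16, a trended robust prior and scaling to the hybridization controls. Of all alternatives, Id1 passed under 7 of 16, Atoh8 under 7 of 17, Smad6 under 6 of 17 and Bmp2 under 4 of 17, with adjusted p up to 0.277. For these 4 the ketogenic arrays were all above the chow arrays, while Hamp, a BMP target in hepatocytes, was lower on all ketogenic arrays; whether the directions differ was not tested. Endothelial markers, from cells that make Bmp2 and Bmp6, summed to 1258 to 1656 on ketogenic and 729.7 to 1122 on chow arrays, without overlap; 0 of 9 changed in limma (5 were higher by unadjusted p), and their part in these values was not tested.

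Of 9 genes of inflammatory and stress control of hepcidin, 0 changed (limma; 2 were higher at an unadjusted p under 0.05). Cebpa, a hepatocyte transcription factor that activates Hamp and the brightest of the list, had a log2 change of -0.06 and adjusted p = 0.924. The other genes here are named after their values were seen. Il6st, the signalling receptor chain gp130 of interleukin 6, had a log2 change of 1.05 and adjusted p = 0.0744, and the kinase Jak1 one of 0.78 and adjusted p = 0.116, both without overlap of the diets. Il6st passed under 7 and Jak1 under 4 of 17 alternatives (adjusted p up to 0.218 and 0.352). The other kept probe sets of Il6st had log2 changes of 1.37, 0.55 and 0.97, and those of Jak1 0.28 and 0.60. None of these passed the threshold as deposited. Stat3 had a log2 change of 0.29 and its target Socs3 one of -0.13, and neither passed under any of 16 alternatives. Of 7 genes of iron sensing, iron chaperones and ferritin turnover 0 changed (limma, and 0 also at an unadjusted p under 0.05). Of these 7, 3 had a positive log2 change, where 69.9% of all genes did. The brightest, Pcbp1, which delivers iron to ferritin, had a log2 change of 0.31 and adjusted p = 0.574. Aco1, the iron regulatory protein that also serves as cytosolic aconitase, read 590.9, 699.9 and 383.1 on ketogenic and 935.2, 897 and 696.4 on chow arrays. It is named after its values were seen. The diets overlapped, with a log2 change of -0.63 and adjusted p = 0.289. Aco1 fell only with a common trimmed mean. Its other kept probe sets had log2 changes of -0.08 and 0.09 (limma, adjusted p = 0.895 and 0.919).

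The copper oxidase Cp, ceruloplasmin, which loads iron onto transferrin, was kept alone of its list. Its brightest probe set read 5177.1, 5955.1 and 5269.3 on ketogenic arrays, against 3523.1, 3128.3 and 3480.4 on chow arrays. The diets did not overlap, with a log2 change of 0.69 ± 0.23 (SE) and adjusted p = 0.14. It passed under 4 of 16 alternatives (adjusted p from 0.00623 to 0.337), and 1 of its 7 other kept probe sets, a dim one, rose as deposited (log2 change 1.68, adjusted p = 0.0285). Of 8 genes of mitochondrial iron 0 changed (limma; 0 also at an unadjusted p under 0.05). The brightest, Fdx1, a ferredoxin with an iron-sulfur cluster, had a log2 change of -0.33 and adjusted p = 0.538.

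**Figure D4:**
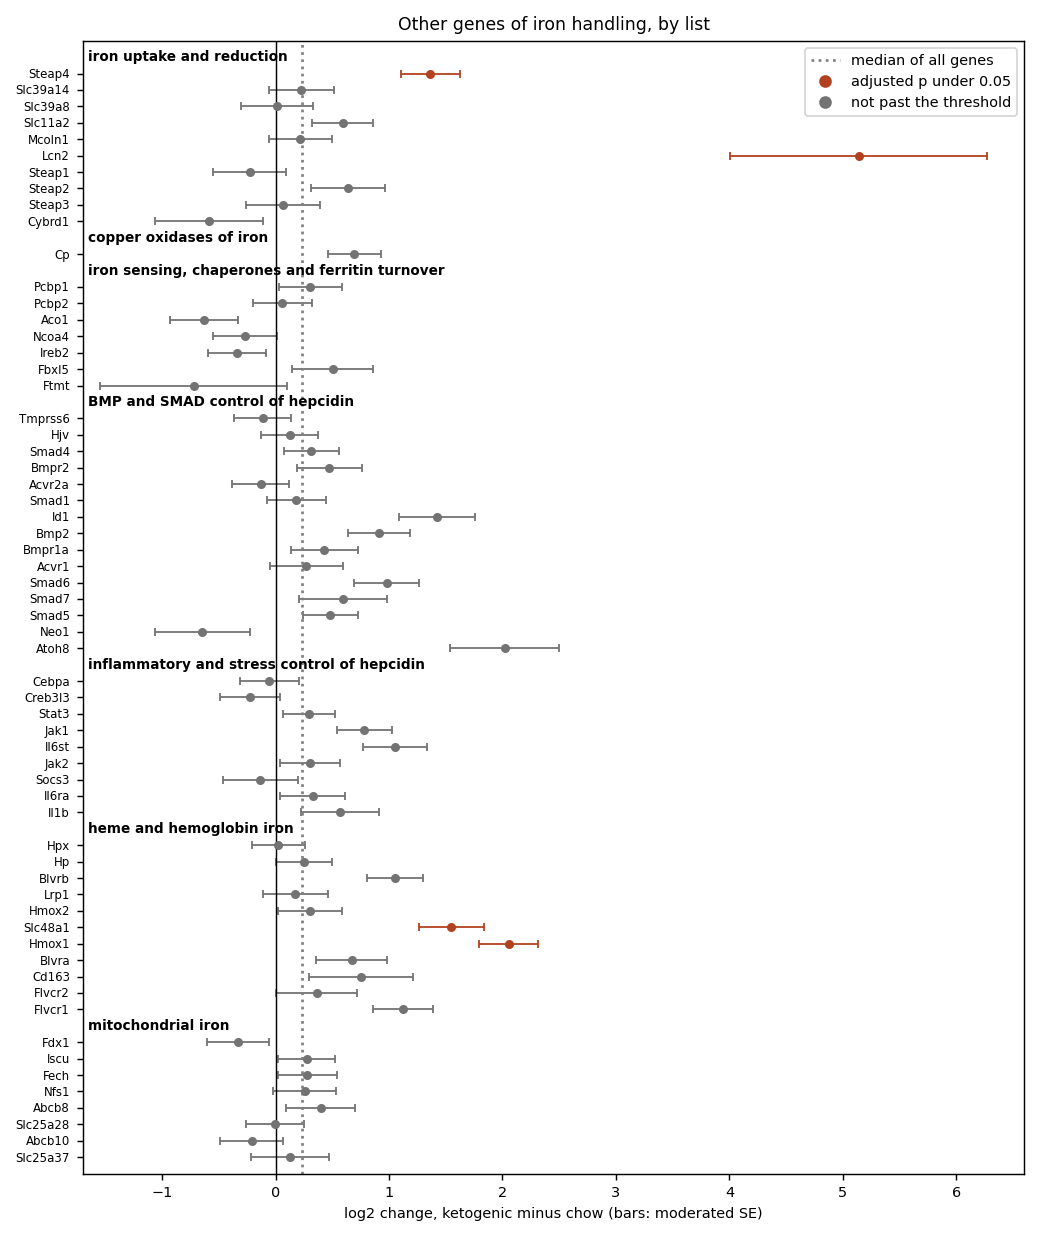
Log2 change (ketogenic minus chow) with the moderated SE of 61 other iron handling genes, grouped by list and ordered by signal within a list; red points passed the threshold and the dotted line is the median of all genes, 0.23. Steap4, Lcn2, Slc48a1 and Hmox1 are the red points, the position of Lcn2 depends on the floor for low signals, and no gene passed on the lower side.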

How the data were processed

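Liver RNA was labelled with biotin by the one-cycle Affymetrix protocol and hybridised to 6 one-colour arrays, per the labels. The authors deposited linear signal intensity per probe set. The submitters' processing notes name GCOS and MAS5; versions, scaling target and genome build are not given there. The deposited normalization was kept. Signals below 1.1, the table's 10th percentile, were set to it before taking log2. Of 45101 probe sets, 64 controls were left out, and those with a mean log2 below the median (signal 10.2) were dropped, leaving 22515. The test was limma 3.58.1 (lmFit, eBayes; R 4.3.3) between diets, two-sided, adjusted by Benjamini-Hochberg over all 22515, with a threshold of 0.05. It was also run on data simulated from its own model, without level differences between arrays, which cannot show how it performs on these arrays. No change under 0.97 (log2) passed. Ratios within an array were compared by an exact permutation test. Precision is limited by the number of arrays.

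Symbols came from the platform annotation: 34958 probe sets had 1 symbol, 932 several and 9211 none. The background of 10.8 is taken from 27 bacterial control probe sets, as the geometric mean over arrays of their 95th percentile. Promoter sequences matched 7 of the 8 measured genes by symbol and were aligned globally with free end gaps. Replicates were numbered in order of deposition and pair no arrays. Every gene of the group is named, and of the other iron lists each gene past the threshold and the brightest gene; other genes of those lists are named after their values were seen. The genes and lists were chosen with earlier results of these data known. The ratio of Fth1 to Ftl1 was planned and not made, since Ftl1 has no probe set of its own. Alternatives were 4 scalings, 2 treatments of low signals, 2 filters, another prior, other sets of probe sets and leaving out each array.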

Additional observations from a re-analysis of the deposited data

How the results depend on the processing

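As deposited, 2 probe sets of the iron handling genes rose and 1 fell, and 4 of the other iron genes rose and 0 fell. The higher count was 1 with 1 probe set per gene, where each gene has only 1, and 0 without a filter, where more probe sets are tested (45037). The lower count was 2 with a common trimmed mean, a common array median or quantile normalization, where Tfr2 joined Hamp2, and 0 without a filter or when _x_at, _s_at and _a_at probe sets are left out, which removes that of Hamp2. Leaving out 1 array gave 1 to 2 higher and 0 to 0 lower: 1 higher without any 1 array except chow array 1, and 0 lower without each array. The other iron genes higher numbered 16 under scaling to the hybridization controls, 11 for a floor of 16, 12 with a pseudocount of 16, 0 without a filter, 9 with a filter at the 60th percentile, 11 with a trended robust prior (Lcn2 not among them), 1 when _x_at, _s_at and _a_at probe sets are left out, 9 with 1 probe set per gene, and 1 to 4 without 1 array (1 without ketogenic array 1, 2 or 3). Lower ones numbered 1 with a common trimmed mean (Aco1) and 0 to 0 without 1 array. The cause of these shifts was not tested beyond what the alternatives' construction shows. The difference between diets in the ratio of Tfrc to Tfr2 lay between 0.83 and 1.18 without 1 array. Over the 47 probe sets recomputed singly, 656 repeats gave the same call, 60 lost and 53 gained one, and no called change turned its direction. Over all probe sets 918 rose and 127 fell (87.8% higher), with 788 and 403 (66.2%) for a common trimmed mean, 1068 and 312 (77.4%) for a common median, 646 and 355 (64.5%) for quantile normalization and 4985 and 128 (97.5%) for the hybridization controls. No paired analysis was possible because the labels give no replicate numbers.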
